A study of Mus musculus with 7 samples.

Results

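The genes described here are the secreted and membrane-bound enzymes that cut and crosslink the extracellular matrix, with the inhibitors that hold the proteases in check. They were taken from the deposited brown fat count table by name: protein-coding genes beginning with Adamts, Mmp and a digit or Timp and a digit, plus Lox and Loxl1 to Loxl4. The rule gave 55 of 55487 genes: 22 MMP, 19 ADAMTS, 5 ADAMTS-like, 4 TIMP and 5 lysyl oxidase genes. No measured value entered the rule.

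The 7 samples are brown fat RNA of NOD/ShiLtJ mice, which develop diabetes through autoimmunity. Of these samples, 4 are from mice given CB-100 and 3 from mice sham-treated with KRBH buffer. CB-100 is the portion above 100 kDa of buffer conditioned by brown adipocytes (imBAT conditioned buffer in the sample labels) and was injected under the skin at 1.5 mg per kg of body weight for 7 days. The recipients had blood glucose between 190 and 230 mg/dL, and brown fat was collected 2 to 8 weeks later, the week of each mouse being unstated; the labels repeat this protocol for sham without a schedule of its own. Age and sex are not given in the labels. Counts of Xist and Y-linked genes showed 1 male library in each group, replicate 3 of each, and 5 female libraries. The sample titles carry nd on every CB-100 sample and d on every sham sample, and whatever this code marks cannot be told apart from the injection. The titles carry a different animal code for each sample, and the sexes show that each group holds more than 1 animal; beyond this the labels do not say that the replicates are separate mice, so each p-value reflects how far these samples spread.

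Library totals ran from 10815073 to 28528421 counts, the lowest in CB-100 replicate 2 and the highest in CB-100 replicate 4. At an adjusted p of 0.05 (Benjamini-Hochberg, edgeR quasi-likelihood), 239 of 16823 tested genes were called higher with CB-100 and 383 lower, 3.70% in all. Brown and general adipocyte markers were abundant in every library. Their summed levels in CB-100 were 1460 to 3840 and 6570 to 10600 CPM (counts scaled by TMM library size). In sham they were 1430 to 2480 and 9220 to 12600 CPM. Each library also held skeletal muscle RNA, with 245 to 1820 CPM over 10 marker genes in CB-100 and 700 to 1580 CPM in sham.

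The matrix between fat cells is built of collagens, elastic fibres, basement membrane and proteoglycans. MMPs (matrix metalloproteinases) and ADAMTS proteases are zinc enzymes made as inactive precursors. MMPs cut collagens, laminins and many surface proteins, while ADAMTS proteases trim procollagens, cleave large proteoglycans such as versican, or act on fibrillin microfibrils. ADAMTS-like proteins share the accessory domains of the ADAMTS family without the protease. TIMPs (tissue inhibitors of metalloproteinases) block the active site, and lysyl oxidases oxidise lysines of collagen and elastin so that the fibres crosslink. In fat, remodelling of this matrix accompanies expansion, vessel growth and fibrosis.

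Of the group, 5 genes rose in CB-100 and none fell: Adamts10, Mmp15, Adamts15, Adamts12 and Adamts16. They are 5 of the 40 genes that passed the filter on low counts, or 12.5%, against 1.42% of all genes tested that were called higher. For lower calls the edgeR count was 0 of 40 against 2.28% of all genes tested, with 0 at an unadjusted p under 0.05 and 0 by DESeq2 or limma voom. At an unadjusted p under 0.05, 15 of the 40 were higher, against 11.7% of all genes tested. The CB-100 libraries all lay above the sham libraries for 14 of the 40, against 11.1% of all genes tested, and all lay below them for 0, against 12.2%. Estimates were above 0 for 34 of the 40, against 52.7% of all genes tested. The median log2 change of the 40 was 0.54, where the median over all genes tested was 0.03. The filter asks for 3 libraries, so a gene can pass through CB-100 alone. Of the 40, 7 (Adamts16, Adamts17, Adamts18, Adamts20, Adamts4, Adamtsl2 and Mmp3) did not reach 0.674 CPM in every sham library. The counts above, without overlap and at an unadjusted p under 0.05, include some of these 7. Among the other 33 were 4 of the 5 called genes, and 27 of these 33 had estimates above 0.

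**Figure D1:**
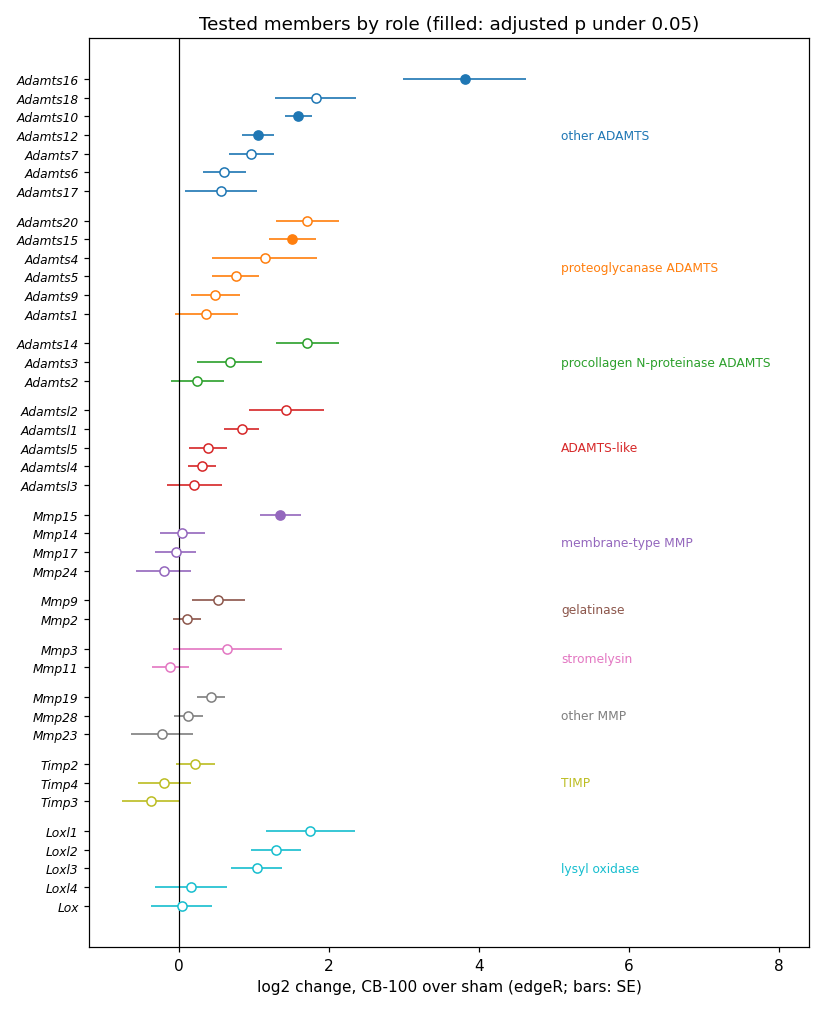
Log2 change of CB-100 over sham (x axis) with its standard error for the 40 tested genes (y axis), grouped and coloured by role. Filled points passed at an adjusted p of 0.05: Adamts16, Adamts10, Adamts12, Adamts15 and Mmp15, all to the right of 0, while the TIMP genes lie between -0.38 and 0.21.

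The count of 5 differed between sets of libraries and between fits. With DESeq2 12 members were higher and 0 lower, against 5.48% and 6.23% of all genes tested, and with limma voom 9 and 0, against 2.70% and 4.14%. Leaving out sham replicate 1 or sham replicate 3 gave 0 members, where 0.0116% and 0% of all genes were higher. It was 1 without CB-100 replicate 1 (0.222% of all genes) or CB-100 replicate 2 (0.0302%), and 2 without CB-100 replicate 3 (0.384%). With CB-100 replicate 4 left out (1.37%) it was 5. Without sham replicate 2 (0.659%) it was also 5, with Loxl2 called and Adamts16 not. The 5 female libraries alone gave 0 members, with 0% of all genes higher. Sex as a covariate gave 3 (0.511%), namely Adamts10, Adamts15 and Loxl1, a skeletal muscle score gave 0 (0.00594%) and a test against a fold change of 1.5 gave 0 (0.0119%). Scaling by RLE (1.50%) or upper quartile (1.68%), a filter of 1 CPM in 3 libraries (1.76%) and the removal of mitochondrial and small structural RNA genes (1.42%) each kept 5, and no filter gave 7 (1.02%). The tested members had a median exon length of 5417 bases and a median transcript GC content of 53.9%, against 3877 bases and 49.1% over all genes tested. The share of genes called higher was 0.762% in the shortest 25% of all genes by exon length and 2.45% in the longest 25%, and it was 0.588% in the 25% of lowest GC content and 2.83% in the highest. In the 596 genes that were in the top 25% of both, 7.05% were called higher, 77.5% of estimates were above 0 and the median log2 change was 0.32. Of the 40 tested members, 5 were among these 596 of the 16823 genes tested. In the longest 25% of all genes were 17 of the 40, and in the 25% of highest GC content 19. With smooth terms for exon length and GC content in each library, 2 members stayed called, Adamts10 and Mmp15, against 0.732% of all genes, and the members' median was 0.44. Adamts12, Adamts15 and Adamts16 kept log2 changes of 0.95, 1.32 and 3.69 there, with edgeR adjusted p = 0.0574, 0.0523 and 0.0523.

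**Figure D2:**
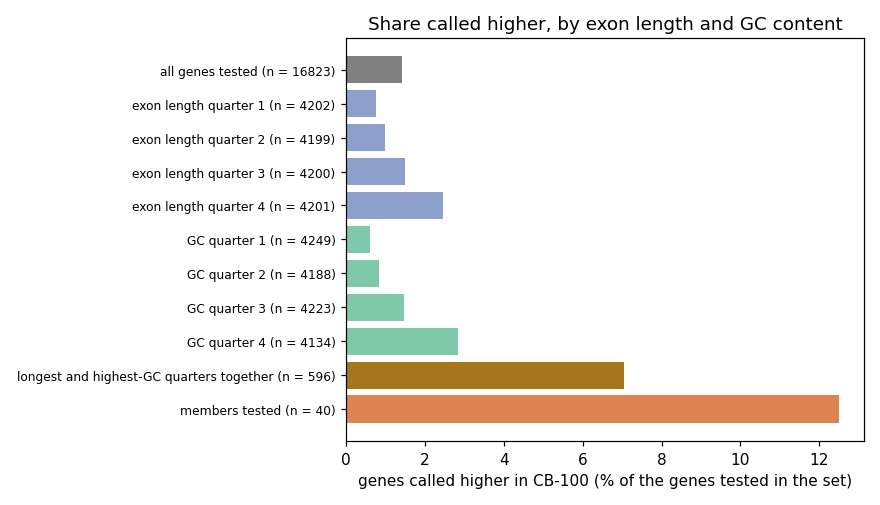
Percent of tested genes called higher in CB-100 (x axis) over all genes, by exon length and by GC content in 4 bins each, in the genes in the top 25% of both, and among the tested members (y axis, with the number of genes). The share climbs from 0.762% to 2.45% over the length bins and from 0.588% to 2.83% over the GC bins, reaches 7.05% where both are highest, and is 12.5% among the members. Of the 40 tested members, 5 are in the top 25% of both.

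Adamts10, a protease of fibrillin microfibrils, had the smallest p of the group. It stood at 25.7, 33.0, 26.6 and 38.4 CPM in CB-100 replicates 1 to 4 and at 10.7, 10.7 and 9.40 CPM in sham replicates 1 to 3. The sham libraries were nearly level, and the lowest CB-100 library was well above each of them. The fitted difference was 3.01-fold (log2 change 1.59 with SE 0.18, edgeR, adjusted p = 0.0149). Adamts10 lies at chromosome 17, 33524204 to 33553782, on the plus strand of GRCm38. Its log2 change stayed between 1.33 and 1.67 over 19 other fits and remained called in 14 of them; it was not called without sham replicate 1 (edgeR adjusted p = 0.0575), without sham replicate 3 (edgeR adjusted p = 0.0939), in the females (log2 change 1.59, edgeR adjusted p = 0.106), with the muscle score (edgeR adjusted p = 0.0955) or against a fold change of 1.5 (edgeR adjusted p = 0.0838). In the 2 males, it stood at 26.6 CPM with CB-100 and 9.40 CPM with sham.

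Adamts12, which can cleave the cartilage protein COMP, lies at chromosome 15, 11064790 to 11349231, on the plus strand. It measured 30.9, 40.6, 27.5 and 31.7 CPM in CB-100 and 12.2, 21 and 14.2 CPM in sham. Sham replicate 2 was the highest of its group and still below each CB-100 library. The change was 2.07-fold (log2 change 1.05 with SE 0.22, edgeR, adjusted p = 0.0389). With the length and GC terms it was 0.95 on the log2 scale (edgeR adjusted p = 0.0574), and it was not called without CB-100 replicates 1, 2 or 3 or sham replicates 1 or 3 (log2 changes of 0.89 to 1.12).

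Adamts16, a close relative of Adamts18, had the largest fitted change from very few reads. Its counts were 15, 22, 14 and 10 in CB-100 and 0, 1 and 3 in sham. The pooled rates, 61 counts against 4, gave a ratio of 13.9 with an exact 95% interval of 5.16 to 52.7 that covers counting error only. The fitted log2 change was 3.81 (with SE 0.82, edgeR, adjusted p = 0.0427) and depends on the prior count at such levels. It was not called without any 1 of the 3 sham libraries (edgeR adjusted p = 0.0951 to 0.13), and it did not pass the low-count filter without CB-100 replicates 1, 2 or 3. Adamts16 is on the minus strand of chromosome 13, from 70727802 to 70841811.

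Among the other ADAMTS proteases outside the proteoglycanase and procollagen classes, none of the remaining 4 tested genes passed. Adamts18 and Adamts7, described here after their values were seen, gave log2 changes of 1.82 (SE 0.54) and 0.96 (SE 0.30) with no overlap between the groups (edgeR adjusted p = 0.0871 and 0.101). Adamts18 had few reads, at 0.787, 0.731, 0.863 and 2.09 CPM in CB-100 and 0.312, 0.206 and 0.423 CPM in sham. None of its sham libraries reached the filter cutoff. Adamts6 and Adamts17 gave 0.60 and 0.56, with overlap. Adamts13, the protease of von Willebrand factor, and Adamts19 did not pass the filter, with at most 15 counts in a library.

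**Figure D3:**
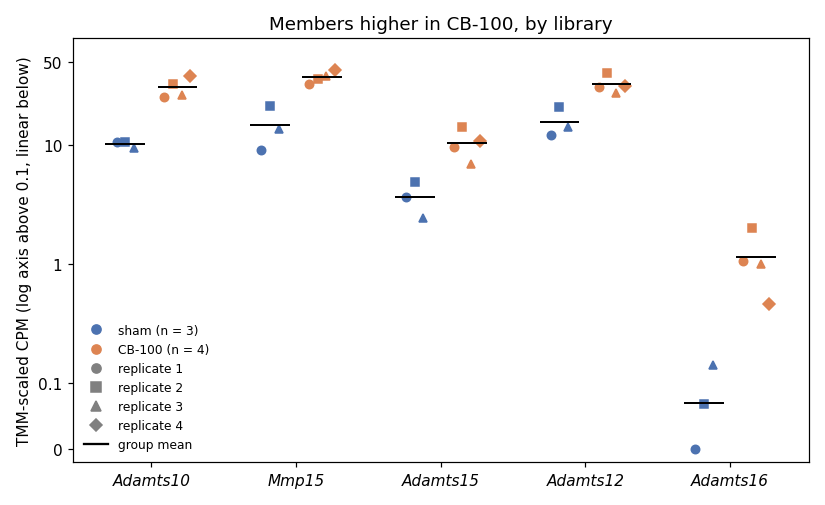
TMM-scaled CPM (y axis, log scale above 0.1) of the 5 genes that rose (x axis), with 1 point per library, symbols for replicates and bars for group means. In each gene the 4 CB-100 points lie above the 3 sham points; Adamts16 is listed at 0 in sham replicate 1.

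Adamts15 was the called gene among the proteases that cleave versican, aggrecan and related proteoglycans. It stood at 9.66, 14.2, 6.98 and 10.8 CPM in CB-100 and at 3.64, 4.88 and 2.44 CPM in sham, 2.85-fold higher (log2 change 1.51 with SE 0.31, edgeR, adjusted p = 0.0382). The males held the lowest level of each group. The minus strand of chromosome 9 holds Adamts15, from 30899155 to 30922452. With the length and GC terms its log2 change was 1.32 (edgeR adjusted p = 0.0523). It was not called without CB-100 replicates 1 or 2 or sham replicates 1 or 3, with log2 changes of 1.28 to 1.55 there.

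Adamts20, a versican-cleaving protease, fell just short of the threshold. It measured 1.50, 2.74, 1.58 and 2.05 CPM in CB-100 and 0.781, 0.687 and 0.329 CPM in sham, without overlap (log2 change 1.71 with SE 0.42, edgeR, adjusted p = 0.0554). Adamts5, a main aggrecan-cleaving enzyme, measured 24.8, 42.3, 36.5 and 32.2 CPM in CB-100 against 12.3, 31.8 and 16.5 CPM in sham. Sham replicate 2 reached the CB-100 range, and the test did not pass (log2 change 0.75 with SE 0.32, edgeR, adjusted p = 0.201). The abundant members of the class, Adamts1 and Adamts9, named after their values were seen, had log2 changes of 0.36 (SE 0.42) and 0.48 (SE 0.33) with overlapping groups, the count of Adamts9 being non-whole and uncertain, and Adamts4 gave 1.14 (SE 0.70). Adamts8 did not pass the filter.

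The procollagen N-proteinases, which remove the amino-terminal propeptide of fibrillar procollagens, had 0 calls of 3. Adamts14 measured 2.58, 6.39, 3.09 and 4.19 CPM in CB-100 and 1.09, 1.86 and 0.799 CPM in sham. All CB-100 libraries were above all sham libraries, with a log2 change of 1.71 (with SE 0.42, edgeR, adjusted p = 0.0565). Adamts2, the most abundant of the 3 per kilobase of exon, measured 19.1, 43.7, 21.3 and 19.0 CPM in CB-100 and 20.3, 30.1 and 15.1 CPM in sham. Only CB-100 replicate 2 was above the sham range, and the log2 change of 0.24 (SE 0.35) became -0.14 without it. Adamts3 gave 0.67 (with SE 0.44, edgeR, adjusted p = 0.382).

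The ADAMTS-like genes, whose products bind fibrillin microfibrils or other matrix proteins, had 0 calls of 5, with a median log2 change of 0.38. Adamtsl1 measured 11.4, 9.22, 10.1 and 8.98 CPM in CB-100 against 4.95, 7.63 and 4.23 CPM in sham. The groups did not overlap (log2 change 0.83 with SE 0.24, edgeR, adjusted p = 0.0801). Adamtsl2 gave 1.43 (with SE 0.50, edgeR, adjusted p = 0.125) from 0.970 ± 0.315 CPM (SD, n = 4) and 0.367 ± 0.181 CPM (SD, n = 3), and Adamtsl4 gave 0.30 (SE 0.19). Adamtsl5 and Adamtsl3 overlapped between the groups.

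Mmp15, a membrane-anchored protease, was the 1 MMP called of 11 tested. It measured 32.6, 36.3, 38.3 and 43.1 CPM in CB-100 and 9.11, 21.5 and 13.6 CPM in sham. Sham varied more than CB-100, yet its highest library, replicate 2, was below the lowest CB-100 library. The change was 2.56-fold (log2 change 1.35 with SE 0.27, edgeR, adjusted p = 0.0355) and was 1.14 with the length and GC terms (edgeR adjusted p = 0.0475). It was not called without CB-100 replicates 1, 2 or 3 or sham replicates 1 or 3 (log2 changes of 1.09 to 1.42). The gene lies at chromosome 8, 95352268 to 95375080, on the plus strand.

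Mmp14, the membrane-anchored collagenase that activates Mmp2 together with Timp2, did not pass and is named after its values were seen. It measured 8.59, 19.4, 13.5 and 20.5 CPM in CB-100 and 18.0, 15.7 and 11.4 CPM in sham (log2 change 0.04 with SE 0.30, edgeR, adjusted p = 0.944). Mmp17 and Mmp24 gave -0.05 (SE 0.27) and -0.21 (SE 0.37), the count of Mmp24 being uncertain because it is non-whole in all 7 libraries and its exons overlap BC029722, and the difference between Mmp15 and these relatives was not tested. Mmp16 and Mmp25 did not pass the filter.

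The gelatinases Mmp2 and Mmp9, which digest denatured collagen and basement membrane, did not pass. Mmp2 was the most abundant MMP per kilobase of exon, at 29.1, 39.6, 36.2 and 38.0 CPM in CB-100 and 28.6, 43.6 and 28.2 CPM in sham. The sham range held the CB-100 values, with a log2 change of 0.10 (with SE 0.19, edgeR, adjusted p = 0.797). Mmp9, which neutrophils and macrophages also make, gave 0.52 (with SE 0.35, edgeR, adjusted p = 0.397). Summed over 9 genes, neutrophil markers were 1.15 to 5.02 CPM in CB-100 and 5.69 to 9.11 CPM in sham. Of these genes 3 were tested and 1, Elane, fell. Elane had few reads, at 0.0715 to 0.183 CPM in CB-100 and 0.756 to 1.67 CPM in sham. None of its CB-100 libraries reached the filter cutoff of 0.674 CPM. Macrophage markers, 7 genes, were 98.9 to 241 CPM and 118 to 182 CPM, with 0 of 7 called. Their part in the Mmp9 level was not tested.

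Mmp19, Mmp28 and Mmp23 were the tested genes of the remaining MMP class, and 0 of 3 passed. Mmp19 averaged, in CB-100, 23.7 ± 5.42 CPM (SD, n = 4) and, in sham, 17.7 ± 1.55 CPM (SD, n = 3) (log2 change 0.42 with SE 0.19, edgeR, adjusted p = 0.232). Mmp28 stood at 21.4 ± 4.85 CPM and 19.6 ± 0.757 CPM, and Mmp23 at 2.64 ± 0.732 CPM and 3.10 ± 1.73 CPM. Counts of Mmp19 and Mmp28 are uncertain, being non-whole in all 7 libraries, with exons that overlap genes on the opposite strand. The stromelysin Mmp11, uncertain for the same reasons, gave -0.12 (SE 0.25).

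Most genes of the MMP cluster that holds the collagenases and stromelysins were at the floor of the measurement. The 9 members of the cluster lie at chromosome 9, 7272514 to 7699585: Mmp13, Mmp12, Mmp1b, Mmp3, Mmp10, Mmp8, Mmp27, Mmp20 and Mmp7. Of these 4, Mmp1b, Mmp7, Mmp10 and Mmp20, had 0 counts in all 7 libraries, which allows up to 0.274 CPM in the shallowest library by a limit of 3 counts. Only Mmp3 passed the filter, with 3 to 26 counts in a library (log2 change 0.64 with SE 0.73, edgeR, adjusted p = 0.630), and the other 8 had at most 14 counts in any library. Mmp12, the macrophage elastase, measured 0 to 0.216 CPM in CB-100 and 0.0687 to 0.729 CPM in sham.

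Promoter windows of 3 cluster genes are printed here beside those of Mmp15 and Adamts12, which rose, and of Mmp14, which did not pass, because they show a motif that was found in the cluster alone among the members searched. RefSeq windows on GRCm38.p6 were found for 36 of the 55 genes, and the 250 bases before each start were searched on both strands for TGANTCA, the AP-1 motif through which Fos and Jun proteins bind, and for GGGCGG, the GC box bound by Sp1. AP-1 letters were present in a window of 7 of the 9 cluster genes and of 0 of the 27 other members with a window. Counted by window, they were in 7 of the 39 windows of members, or 17.9%. This compares with 4.69% of the windows of all genes tested and 6.75% of all windows in the table. Of the cluster only Mmp3 was among the genes tested. The match in Mmp20 reads TGAATCA. Windows for Adamts10, Adamts15 and Adamts16 are not in the table. Capitals mark the AP-1 letters in the first 3 windows and GC boxes in those of Mmp15 and Mmp14; Adamts12 has neither.
Mmp3, chr9:7445572-7445821, plus strand: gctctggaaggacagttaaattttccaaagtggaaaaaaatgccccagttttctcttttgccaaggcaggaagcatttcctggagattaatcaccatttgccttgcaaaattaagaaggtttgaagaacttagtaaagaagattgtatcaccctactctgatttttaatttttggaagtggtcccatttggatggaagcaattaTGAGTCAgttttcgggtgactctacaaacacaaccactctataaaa
Mmp10, chr9:7502092-7502341, plus strand: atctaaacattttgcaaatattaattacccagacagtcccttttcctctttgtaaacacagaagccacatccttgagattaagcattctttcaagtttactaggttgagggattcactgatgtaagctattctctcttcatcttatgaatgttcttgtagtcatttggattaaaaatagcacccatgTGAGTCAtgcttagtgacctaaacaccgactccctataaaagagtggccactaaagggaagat
Mmp13, chr9:7272264-7272513, plus strand: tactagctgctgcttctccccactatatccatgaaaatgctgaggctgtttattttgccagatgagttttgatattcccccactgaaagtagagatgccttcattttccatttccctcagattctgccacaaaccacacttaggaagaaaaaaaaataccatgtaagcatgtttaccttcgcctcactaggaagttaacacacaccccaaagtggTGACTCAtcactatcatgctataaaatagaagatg
Mmp15, chr8:95352046-95352295, plus strand: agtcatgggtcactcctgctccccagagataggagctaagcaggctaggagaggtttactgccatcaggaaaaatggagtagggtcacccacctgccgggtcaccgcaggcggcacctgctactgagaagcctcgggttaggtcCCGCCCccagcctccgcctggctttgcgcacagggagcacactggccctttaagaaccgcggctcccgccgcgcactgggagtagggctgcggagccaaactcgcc
Mmp14, chr14:54431348-54431597, plus strand: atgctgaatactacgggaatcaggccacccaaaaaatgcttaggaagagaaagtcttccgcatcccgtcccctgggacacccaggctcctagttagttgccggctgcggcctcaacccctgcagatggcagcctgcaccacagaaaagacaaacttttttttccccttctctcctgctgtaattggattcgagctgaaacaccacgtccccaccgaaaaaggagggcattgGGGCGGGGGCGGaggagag
Adamts12, chr15:11064523-11064772, plus strand: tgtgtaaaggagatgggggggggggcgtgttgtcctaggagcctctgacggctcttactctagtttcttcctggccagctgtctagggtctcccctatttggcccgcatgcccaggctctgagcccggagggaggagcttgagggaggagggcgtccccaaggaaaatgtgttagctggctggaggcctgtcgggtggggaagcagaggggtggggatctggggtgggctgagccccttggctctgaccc
In Mmp3 the AP-1 letters begin 46 bases before the start, in Mmp10 63 bases and in Mmp13 35 bases. GC content was 37.6%, 37.2% and 40.4% in these windows and 63.6%, 55.2% and 63.2% in those of Mmp15, Mmp14 and Adamts12. The GC box was in 53.8% of the members' windows and 54.8% of those of all genes tested. Mmp14 holds 2 GC boxes and did not pass, Mmp15 holds 1 and rose, and a match describes letters, not binding.

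Timp3, Timp4 and Timp2 had the highest levels of the 55 genes per kilobase of exon, and 0 of these 3 tested TIMP genes passed. Timp3, the matrix-bound inhibitor of MMPs, several ADAMTS proteases and Adam17, led with 43.5 CPM per kilobase over the 7 libraries. It stood at 211, 279, 221 and 545 CPM in CB-100 and at 565, 395 and 266 CPM in sham. CB-100 replicates 1 and 3 lay below the sham range and replicates 2 and 4 within it (log2 change -0.38 with SE 0.38, edgeR, adjusted p = 0.580). Timp3 counts were non-whole in every library and its exons overlap Syn3 on the opposite strand, so its level is uncertain.

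Timp4, which is enriched in fat, heart and brain, measured 62.5, 91.0, 70.8 and 158 CPM in CB-100 and 134, 124 and 70.3 CPM in sham. Again CB-100 replicate 4 was the highest and sham replicate 3 the lowest of its group (log2 change -0.20 with SE 0.35, edgeR, adjusted p = 0.772). Timp4 exons overlap Syn2 on the opposite strand. Timp2 measured 42.1, 78.5, 55.8 and 42.7 CPM in CB-100 and 38.0, 62.0 and 41.6 CPM in sham, with sham replicates 1 and 3 below each CB-100 library and sham replicate 2 within their range (log2 change 0.21 with SE 0.26, edgeR, adjusted p = 0.650). Timp1, which is induced by injury and cytokines, had 0 to 13 counts and did not pass the filter.

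Lysyl oxidases had 0 calls of 5 and all 5 estimates above 0, against 52.7% of all genes tested. Their median log2 change was 1.03. Loxl1, the enzyme tied to elastic fibres, measured 53.8, 38.0, 17.7 and 51.0 CPM in CB-100 and 9.16, 22.7 and 4.18 CPM in sham. Sham replicate 2 exceeded CB-100 replicate 3, and the males were lowest in each group (log2 change 1.75 with SE 0.59, edgeR, adjusted p = 0.123). Loxl1 passed with sex as a covariate (log2 change 1.72, edgeR adjusted p = 0.0477) and with DESeq2 (adjusted p = 0.0126), and in the other 17 fits its adjusted p ran from 0.0556 to 0.497. Loxl2, which crosslinks basement membrane collagen, measured 16.7, 23.7, 14.6 and 22.7 CPM against 7.03, 12.4 and 4.56 CPM. These groups did not overlap (log2 change 1.29 with SE 0.34, edgeR, adjusted p = 0.0658), and Loxl2 passed with DESeq2 (adjusted p = 0.00545), limma voom (adjusted p = 0.0399), edgeR with no filter (adjusted p = 0.0449) and edgeR without sham replicate 2 (log2 change 1.74, adjusted p = 0.0402). In the other fits its adjusted p ran from 0.053 to 0.373, with 0.185 without sham replicate 1, 0.186 without sham replicate 3 and 0.217 in the females, all by edgeR.

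Loxl3 gave 1.03 (with SE 0.34, edgeR, adjusted p = 0.112) from 3.72, 4.75, 3.74 and 7.40 CPM against 3.12, 2.47 and 1.65 CPM, again without overlap. Lox, the founding member of the family, measured 8.08, 18.6, 21.4 and 11.3 CPM in CB-100 and 8.07, 22.5 and 13.1 CPM in sham, and its log2 change was 0.03 (SE 0.41). Loxl4 gave 0.16 (SE 0.48). Counts of Loxl2 and Loxl3 are uncertain, being non-whole in every library, and each overlaps an opposite gene.

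**Figure D4:**
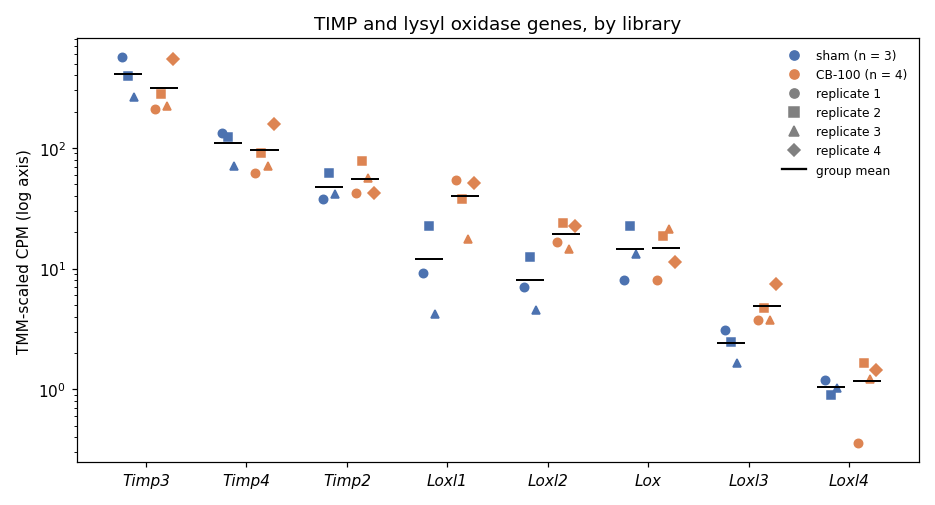
TMM-scaled CPM (y axis, log scale) of 3 TIMP and 5 lysyl oxidase genes (x axis), with 1 point per library and bars for group means. TIMP points overlap between groups; Loxl2 and Loxl3 points do not, and for Loxl1 sham replicate 2 at 22.7 CPM lies above CB-100 replicate 3 at 17.7 CPM.

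Summed over each family per kilobase of exon, TIMP RNA exceeded MMP RNA in all 7 libraries. The TIMP sum was 47.6 to 105 in CB-100 and 55.3 to 102 in sham, led by Timp3. The MMP sum was 34.7, 42.2, 35.8 and 38.6 in CB-100 and 28.3, 33.9 and 29.9 in sham, without overlap but with little distance. Mmp15, which was called, is part of this sum. It averaged 6.96 per kilobase in CB-100 and 2.73 in sham, where the whole sum averaged 37.8 and 30.7. Of the 11 tested MMP genes, 4 had estimates below 0, and their median log2 change was 0.1. The sum without Mmp15 was not examined. For ADAMTS proteases the sum averaged, in CB-100, 35.1 ± 9.74 (SD, n = 4) and, in sham, 22.3 ± 6.07 (SD, n = 3), with overlap. Expressed over the TIMP sum of the same library, ADAMTS RNA was 0.498, 0.598, 0.568 and 0.419 in CB-100 and 0.244, 0.311 and 0.278 in sham, so each CB-100 library was above each sham library. The same ratio for MMP RNA overlapped, at 0.73, 0.598, 0.668 and 0.367 in CB-100 and 0.276, 0.396 and 0.54 in sham. The ADAMTS sum includes Adamts10, Adamts12, Adamts15 and Adamts16, which were called. Both ratios divide by a sum led by Timp3, whose level is uncertain. The ADAMTS ratio without these genes was not examined. The lysyl oxidase sum was 13.6 to 24.0 in CB-100 and 5.45 to 14.6 in sham. These sums over chosen genes carry no test.

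**Figure D5:**
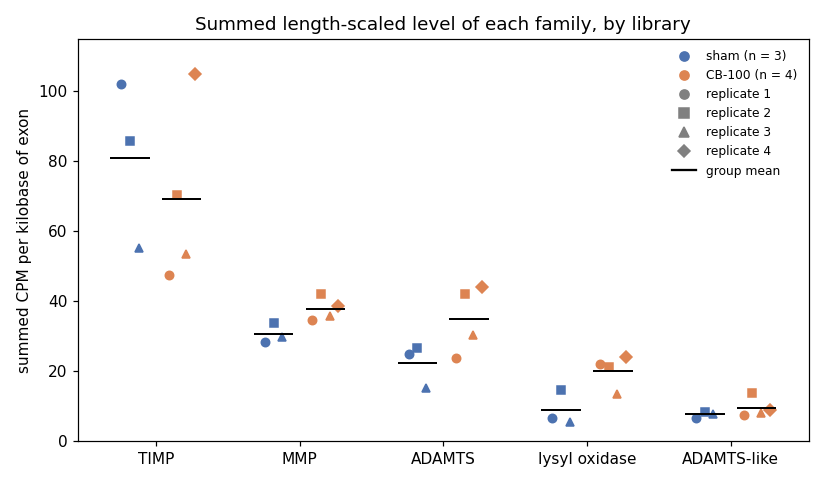
Summed CPM per kilobase of exon (y axis) over all genes of each family (x axis), with 1 point per library and bars for group means. TIMP points, from 47.6 to 105, overlap between groups. MMP points of CB-100 (34.7 to 42.2) all lie above those of sham (28.3 to 33.9), and the MMP sum includes Mmp15, which was called.

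Libraries of a group did not share 1 level. Of the 40 tested members, 24 were lowest in CB-100 replicate 1 within CB-100 and 18 highest in CB-100 replicate 2. Within sham, 23 were lowest in replicate 3 and 18 highest in replicate 2. Fibroblast and stromal markers, 8 genes with 0 called, summed to 143 to 278 CPM in CB-100 and 111 to 201 CPM in sham, with CB-100 replicate 1 and sham replicate 3 lowest in their groups. Mural markers were 823 to 2050 CPM against 554 to 858 CPM and endothelial markers 701 to 1490 CPM against 572 to 964 CPM, 0 of 7 called in each. Schwann cell markers, 6 genes with 0 called, were 81.9 to 93.8 CPM in CB-100 and 54.3 to 66.0 CPM in sham, and mesothelial markers, 5 genes with 2 tested and 1 lower, were 3.81 to 16.6 CPM and 18.1 to 33.6 CPM. Of all genes tested, 52.7% had estimates above 0. Estimates were above 0 for 8 of 8 fibroblast, 6 of 6 Schwann, 6 of 7 endothelial and 6 of 7 mural markers. The median log2 changes of these 4 lists were 0.53, 0.56, 0.57 and 0.07, beside 0.54 for the tested members. Estimates were above 0 for 1 of 7 adipocyte markers (median -0.35) and 5 of 7 brown adipocyte markers (median 0.49). They were above 0 for 2 of 7 macrophage and 0 of 2 tested mesothelial markers. None of these lists had a marker at 0 in all libraries. Their part in the differences of the proteases was not tested, and in whole tissue fewer cells of a type and less RNA per cell cannot be told apart. With a skeletal muscle score as a covariate 0 members were called, where 0.00594% of all genes were called higher. In that fit 34 of 40 estimates of members were above 0 and their median was 0.59.

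Other genes of the pathway were examined as lists. Among other matrix metalloproteases and their regulators, 2 of 20 tested genes rose and 0 fell, against 1.42% and 2.28% of all genes tested, with a median log2 change of 0.22. Bmp1, the procollagen C-proteinase that also activates Lox, rose from 14.7 ± 0.429 CPM (SD, n = 3) to 35.1 ± 7.18 CPM (SD, n = 4), with a log2 change of 1.26 (with SE 0.18, edgeR, adjusted p = 0.0215). Adam19, a membrane metalloprotease, rose by 1.20 (with SE 0.23, edgeR, adjusted p = 0.0344). Bmp1 stayed called in 13 of 19 other fits and Adam19 in 9, and neither passed in the females or without sham replicate 1 or 3.

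Of the substrates of these enzymes, 0 of 19 tested genes passed, with a median log2 change of 0.68. At an unadjusted p under 0.05, 9 of the 19 were higher and 2 lower by edgeR, against 11.7% and 12.2% of all genes tested. The smallest p values belonged to Dcn, the collagen-binding proteoglycan decorin, averaging, in CB-100, 64.2 ± 12.8 CPM (SD, n = 4) and, in sham, 107 ± 11.0 CPM (SD, n = 3) (log2 change -0.74, edgeR adjusted p = 0.0549), and Col4a1, a basement membrane collagen chain, with 706 ± 184 CPM and 326 ± 85.1 CPM (log2 change 1.11, edgeR adjusted p = 0.0556). In the list of elastic fibre and crosslinking partners 1 of 22 rose and 0 fell, against the same 1.42% and 2.28%, with a median of 0.47. It was Emilin1, an elastin interface protein, by 0.75 on the log2 scale (with SE 0.16, edgeR, adjusted p = 0.045), and it stayed called in 6 of 19 other fits. In plasminogen activation, the serine protease route that activates several MMPs, 0 of 8 passed (median 0.18). Serping1, the C1 inhibitor, gave -0.54 (edgeR adjusted p = 0.0965) and Plaur, the urokinase receptor, -1.04 (edgeR adjusted p = 0.273).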

How the data were processed

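Brown fat RNA was extracted with a lipid tissue kit, sequenced on an Illumina NovaSeq instrument and mapped by STAR 2.7.9a against the primary assembly of Ensembl release 101, as stated per the labels' protocols. Per the submitters' processing notes, Salmon 1.5.2, featureCounts 2.0.3 (Subread), limma and edgeR were also used; what each did is not stated. The library kit, strand setting and multi-mapping options are not stated there. Values deposited by the authors are expected counts by gene without normalization, with up to 2 decimals. Non-whole counts, present in 12 of the 55 members, leave a gene's share of ambiguous reads uncertain, and 16 members have exons that overlap another gene in GENCODE M21 on GRCm38, which held 99.5% of the identifiers.

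Of 55774 lines, 287 repeated an identifier with identical values and were removed. Counts were rounded, filtered by filterByExpr, scaled by TMM and tested two-sided with edgeR 4.0.16 (robust quasi-likelihood) under R 4.3.3. The p-values were adjusted over all 16823 genes by Benjamini-Hochberg, with a threshold of 0.05. The SE is the size of the log2 change over the square root of F. The test was checked on simulated data. CPM use TMM-scaled totals, and levels between genes are divided by the merged exon length in kilobases. Within groups, any pair of libraries differed beyond sampling noise (chi-square over its degrees of freedom 32.3 or more). The small number of samples, 3 or 4 a group, sets the precision.

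Named with values are the TIMP and lysyl oxidase genes, called members, the 3 members of each other role with the smallest p, the 3 with the highest level per kilobase, and of each pathway list the called genes or else the 2 with the smallest p. Other members named were chosen after their values were seen. Protein stretches that this rule also foresaw are not used here. The AP-1 search was foreseen for called members only, and 0 of their 2 windows matched. Its extension to the other members was not foreseen, and the GC box search was added after the data were seen. The members, lists and tests were chosen with earlier results of these data known. Alternatives were RLE and upper quartile scaling, the removal of mitochondrial and small structural RNA genes, other filters, DESeq2 1.42.0, limma 3.58.1 voom with quality weights, a test against a fold change of 1.5, females only, a covariate for sex or for skeletal muscle RNA, each library left out and a threshold of 0.1. A correction for exon length and GC content (mgcv 1.9.3) was chosen after seeing the data.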

Additional observations from a re-analysis of the deposited data

Results flagged for a closer look

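CB-100 replicate 2 stood apart from the other 3 CB-100 libraries in Adamts2, at 43.7 CPM against 19.0 to 21.3 CPM. The gap exceeded the 95% limit of Dixon's test for 4 samples. Among 31 named members so examined this was the 1 that did so, and chance gives about 1 in 20.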

How the results depend on the processing

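The number of members called higher, 5, was 5 with RLE or upper quartile scaling, without mitochondrial and small structural RNA genes and with a filter of 1 CPM in 3 libraries, and 7 of 51 tested with no filter. It was 12 with DESeq2, 9 with limma voom and 10 at a threshold of 0.1, where the share of all genes was not counted. It was 3 with sex as a covariate and 2 with the exon length and GC correction. Against a fold change of 1.5, in the females alone or with the muscle score as a covariate it was 0. Leaving out each library gave 0 to 5, with 0 without sham replicate 1 or 3. The number called lower was 0 under each alternative. Over 30 named members and the alternatives, 489 of 562 values kept direction and side of the threshold, 40 lost the call, 13 gained it and 20 changed sign, all 20 in members that did not pass. In the females the log2 change was -0.28 for Lox, 0.17 for Mmp11, -0.03 for Mmp2 and 0.25 for Mmp23; Mmp17 was 0.01 with limma voom and Mmp28 -0.03 with the length and GC correction. With each library left out, the ranges that crossed 0 were -0.14 to 0.54 for Adamts2, -0.27 to 0.48 for Lox, -0.03 to 0.45 for Loxl4, -0.27 to 0.15 for Mmp11, -0.22 to 0.23 for Mmp17, -0.02 to 0.33 for Mmp2, -0.58 to 0.24 for Mmp23, -0.03 to 0.23 for Mmp28 and -0.01 to 0.46 for Timp2. The cause was not tested. No paired analysis was possible because the labels give the groups no shared replicate numbers. Depth limits the 15 members that were not tested, with at most 19 counts in a library.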
